A study of Citrullus lanatus with 6 samples.

Results

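The genes described here were 150 watermelon genes whose transcripts were high in a single well-watered plant, control replicate 2, and low in the other control plants. They were chosen from 18861 annotated genes of a table of 19742 genes. A mean of at least 100 reads over the 6 libraries was required, and the 100 genes with the highest mean control FPKM (reads scaled by gene length and by library total) were left out, which left 12255 genes. For each of these the value of control replicate 2 was divided by the mean of control replicates 1 and 3, after 10 was added to both, and the 150 genes with the highest ratio were taken (1.22% of those that passed). The control values therefore chose the members, and no test of control replicate 2 against the other controls is given.

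RNA was sequenced from leaves of the cultivar Crimson Sweet, 1 library per plant, from 3 drought-stressed and 3 control plants grown in pots of a soil-less medium with a standard fertilizer mix. Drought-stressed plants had water withheld from day 28 after transplanting by the sample labels (the study's methods give another day) so that the medium was held at 35 ± 5% water, and control plants were kept at 95 ± 5%. All plants were sampled 8 days after the stress began, at an age of 89 days. No allele or transgene was involved, and the study asked which leaf transcripts respond to water deficit. The values below are the deposited normalized counts, which are read counts divided by a size factor for each library, and they are given in the order of replicates 1, 2 and 3 for drought.

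A leaf's transcriptome reflects its cell types and the state of the plant when it was sampled. Leaf cells hold many genes for peroxidases, kinases, transporters and hormone-response factors that wounding, microbes and touch can induce within hours, and several of these also respond to water deficit. Peroxidases of the plant type are secreted heme enzymes that use hydrogen peroxide to couple phenolic compounds in the cell wall. In a bulk leaf sample, fewer cells that express a gene and less RNA per cell cannot be told apart.

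The 6 libraries held 17907062 to 22351455 counted reads, the lowest total being that of control replicate 2. By the same ratio, 216 genes were at least 4-fold above the other libraries of their group in control replicate 2, against 14 to 40 genes in each of the other 5 libraries. More genes, 525, were at least 4-fold below the other controls in control replicate 2, against 19 to 247 in each of the other 5 libraries. Of the genes in the mesophyll marker list, 11 had a description and none of these was at 0 in all libraries. Their summed normalized counts were 233348, 183130.1 and 262581 in the drought libraries, against 218205 in control replicate 2 and 1049295 and 803036 in control replicates 1 and 3. In this sum, which the most abundant genes can set, control replicate 2 stood with the drought libraries. The sums of the xylem and of the flower and pollen markers also placed it nearer the drought libraries. Other marker lists did not. The epidermis and cuticle sum was 61414 in control replicate 2, between 65433 and 40435 in control replicates 1 and 3. The sum of dividing cell markers was lowest in control replicate 2, and the phloem marker lay between the groups. Whether these differences have a part in the values below was not tested.

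The median level of the members in control replicate 2 was far above that of every other library. The ratio that chose the members required this against control replicates 1 and 3. The mean count filter could be met through control replicate 2 alone, so nothing is read from its gap to the drought libraries. The members' median normalized count was 81.4, 135 and 90.7 in the drought libraries, 1397 in control replicate 2, and 189 and 97.9 in control replicates 1 and 3. They took 0.423%, 0.723% and 0.397% of all reads in the drought libraries, 2.83% in control replicate 2, and 0.293% and 0.163% in control replicates 1 and 3. On the log2 scale the ratio that chose them had a median of 2.94 and ran from 7.55 down to 2.26. All 150 were at least 2-fold above the higher of the other controls, with a lowest log2 ratio of 1.49.

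The last members inside the limit of 150 were ClCG06G000890, described as fructokinase, with a log2 ratio of 2.27, and ClCG06G010230 and ClCG10G018680, both with 2.26. The first genes outside it were ClCG11G013260 with 2.25, ClCG01G009930, described as an EH-domain-containing protein, with 2.24, and ClCG09G017710 with 2.23. The limit thus cut through a continuous range of ratios.

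**Figure D1:**
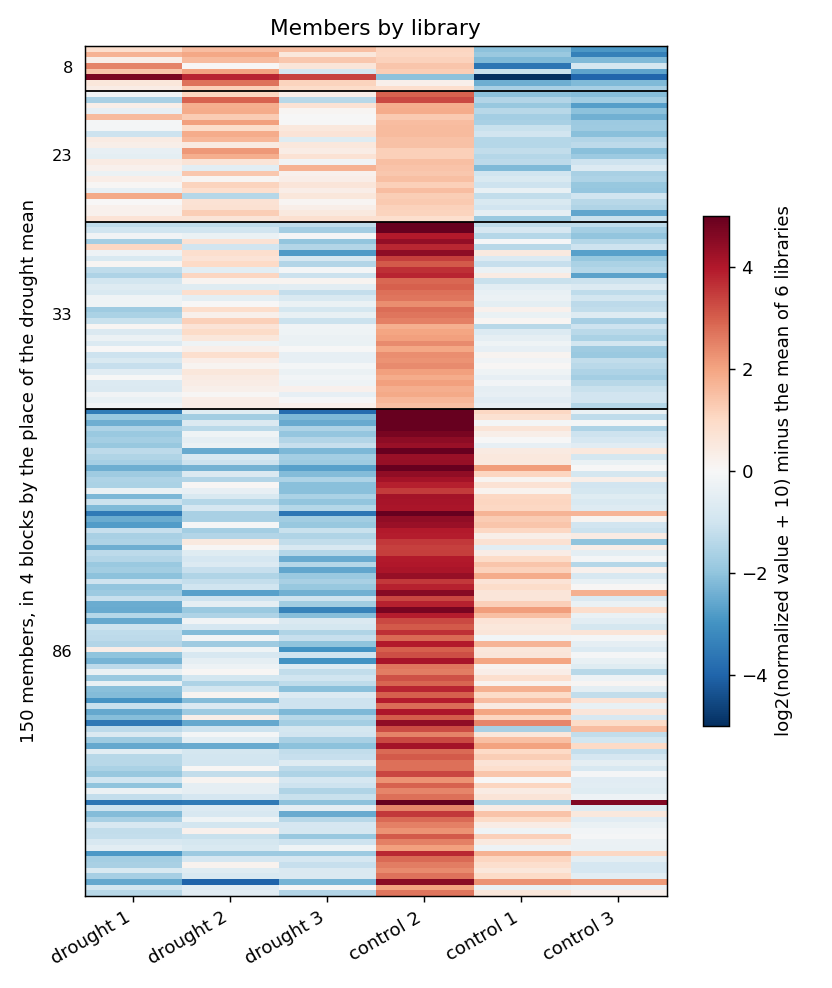
Each row is 1 of the 150 members and each column 1 library. Colour gives log2(normalized value + 10) minus the gene's mean over the 6 libraries, and the blocks, from top to bottom, hold the 8 members with a drought mean above control replicate 2, the 23 with a mean between the control levels but nearer control replicate 2, the 33 nearer control replicates 1 and 3, and the 86 below the mean of control replicates 1 and 3. The control replicate 2 column is dark red in the lower blocks, and the drought columns change from blue at the bottom to red at the top.

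The members' drought levels matched neither control state throughout, and the members fell into 4 groups by the place of their drought mean. The drought mean lay below the mean of control replicates 1 and 3 in 86 members (57.3%), between the control levels but nearer control replicates 1 and 3 in 33 (22.0%), between them but nearer control replicate 2 in 23 (15.3%), and above control replicate 2 in 8 (5.33%). Among the 6507 filtered genes that were higher in control replicate 2 than in the mean of the other controls, the same places held 38.7%, 17.3%, 14.6% and 29.4%. These places use the control values of the selection, and the larger the ratio a gene was chosen for, the wider the range between the control levels, so nothing is read from the contrast of the shares.

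Set against control replicate 2 alone, the drought mean was at least 2-fold lower in 127 members, within 2-fold in 21 and at least 2-fold higher in 2, with a median log2 ratio of -3.71. Of all genes that passed the filters, 15.7% were at least 2-fold lower and 14.5% at least 2-fold higher, with a median of 0.01. Set against control replicates 1 and 3, the drought mean was at least 2-fold lower in 63 members, within 2-fold in 48 and at least 2-fold higher in 39, with a median log2 ratio of -0.58. For all genes that passed, the shares were 14.4% lower and 8.44% higher, with a median of 0.03. Both comparisons use control values that chose the members, so nothing is read from these contrasts. All drought libraries were below both control replicates 1 and 3 in 51 members and above both in 37. Of all genes that passed the filters, 29.4% had every drought library below both and 31.4% had every drought library above both. At least 2-fold under control replicate 2 and at least 2-fold over control replicates 1 and 3 were 16 members, which stood at a level between the control states.

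**Figure D2:**
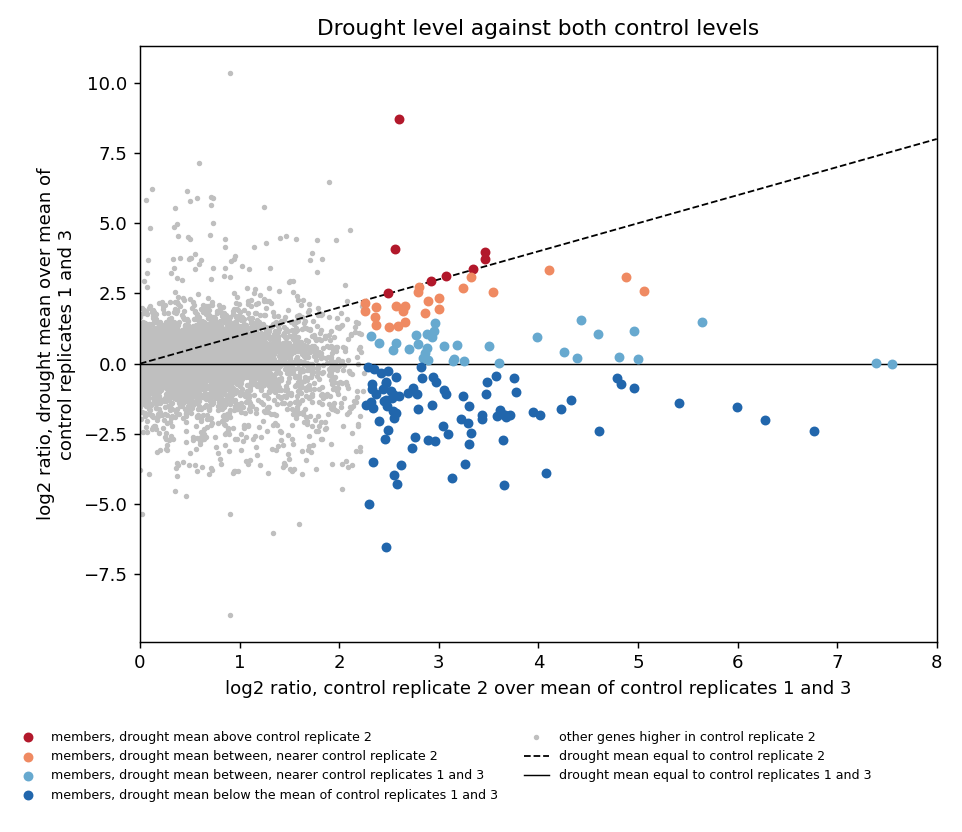
Each point is a gene that passed the filters and was higher in control replicate 2. The x axis gives the log2 ratio of control replicate 2 over the mean of control replicates 1 and 3, by which the members (coloured) were chosen, and the y axis the log2 ratio of the drought mean over the same mean, both with 10 added to each value. Points on the dashed line have a drought mean equal to control replicate 2 and points on the solid line one equal to control replicates 1 and 3. Most members lie under the solid line, and 8 lie on or above the dashed line.

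Gene descriptions came from the deposited table and from the study's lists of genes it called on these same libraries, so a description was more likely for a gene that differed between drought and control. A description was found for 59 members and for 21.5% of the genes that passed the filters. Of the described members, 57 had a drought mean below control replicates 1 and 3 and 2 had one above control replicate 2, while the 91 members without a description were spread over all 4 places (29, 33, 23 and 6 from the lowest to the highest). The named functions below thus come mostly from members that were low in drought. Of the 29 genes that the study's text names by identifier, 0 were members.

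Class III peroxidases and other redox enzymes gave the most members of any description list. Of 36 genes of the list of peroxidases, glutathione transferases and redox proteins that passed the filters, 6 were members (16.7%), against 2.24% of all described genes that passed. Of the 47 genes of the list tested for drought against control, 11 were higher and 14 lower in drought, and 3 of these 14 were members. Of all tested genes, 5.31% were higher and 8.08% lower. A description was more likely for a gene that differed between drought and control, so nothing is read from this difference.

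A run of adjacent members on chromosome 2 of the Charleston Gray reference held the peroxidase genes ClCG02G023770 (38156063 to 38157501) and ClCG02G023780 (38164853 to 38167385), and ClCG02G023790 (38174994 to 38176505), which had no description. ClCG02G023780 had 604, 1177 and 638 normalized counts in the drought libraries, against 34533 in control replicate 2 and 4515 and 2499 in control replicates 1 and 3. ClCG02G023790 had 383, 1230 and 370.3 in the drought libraries, against 38209 in control replicate 2 and 1745 and 696 in control replicates 1 and 3. ClCG02G023770 was the lowest of the run, with 17.5, 76.2 and 9.5 in the drought libraries, against 1213 in control replicate 2 and 126 and 33.2 in control replicates 1 and 3. In ClCG02G023780 every drought library was under every control library, and in the other members of the run drought replicate 2 lay above control replicate 3. Reads may be shared between neighbouring copies of a gene family, so the values of the run are not independent of each other.

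The remaining peroxidases of the set lay elsewhere in the genome. Peroxidase 73 (ClCG01G017400) had 52.5, 56.1 and 42.7 normalized counts in the drought libraries, against 15188 in control replicate 2 and 1453 and 324 in control replicates 1 and 3. ClCG09G015280 had 9.63, 20.9 and 0.95 in the drought libraries, against 2985 in control replicate 2 and 470.2 and 193 in control replicates 1 and 3. The groups did not overlap in either gene. The tests of drought against control given here and below draw on the controls whose values chose the members, so a p describes the 6 libraries and does not stand apart from the choice. The log2 fold change of drought over control was -6.79 (SE 1.47, edgeR adjusted p = 0.0289) for Peroxidase 73, -6.80 (SE 1.36, edgeR adjusted p = 0.0231) for ClCG09G015280 and -4.08 (SE 1.04, edgeR adjusted p = 0.0453, or 0.0562 with scaling by library totals) for ClCG02G023780. For ClCG02G023770 it was -3.70 (edgeR adjusted p = 0.121, or 0.0116 with the replicate number as a block).

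The other members of the redox list were glutathione transferases, which join glutathione to reactive compounds. ClCG04G012300 had 416, 2273 and 697 normalized counts in the drought libraries, against 15188 in control replicate 2 and 3928 and 1073 in control replicates 1 and 3. ClCG04G007500 had 24.5, 36.9 and 30.4, against 743 in control replicate 2 and 199 and 40.4 in control replicates 1 and 3. Drought replicate 2 exceeded control replicate 3 in the first of these genes, and the second had all drought values just under the lowest control. Neither passed the edgeR test (adjusted p = 0.141, or 0.0459 with the replicate block, and 0.0587). These transferases fell outside the rule for naming genes and were chosen after their values were seen.

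Phenylpropanoid enzymes, which supply lignin and soluble phenolics, gave 2 members of 11 genes that passed the filters (18.2%). Cinnamyl alcohol dehydrogenase (ClCG02G006330), the enzyme of the last step to the lignin monomers, had 83.2, 89.7 and 91.2 normalized counts in the drought libraries, against 2068 in control replicate 2 and 304 and 115 in control replicates 1 and 3. The isoflavone reductase family gene ClCG11G004330 had 116, 139 and 132, against 2213 in control replicate 2 and 380.4 and 134 in control replicates 1 and 3. The drought values lay within a narrow range in both genes, close to control replicate 3. Their edgeR adjusted p values were 0.0748 and 0.0909, so neither was called.

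**Figure D3:**
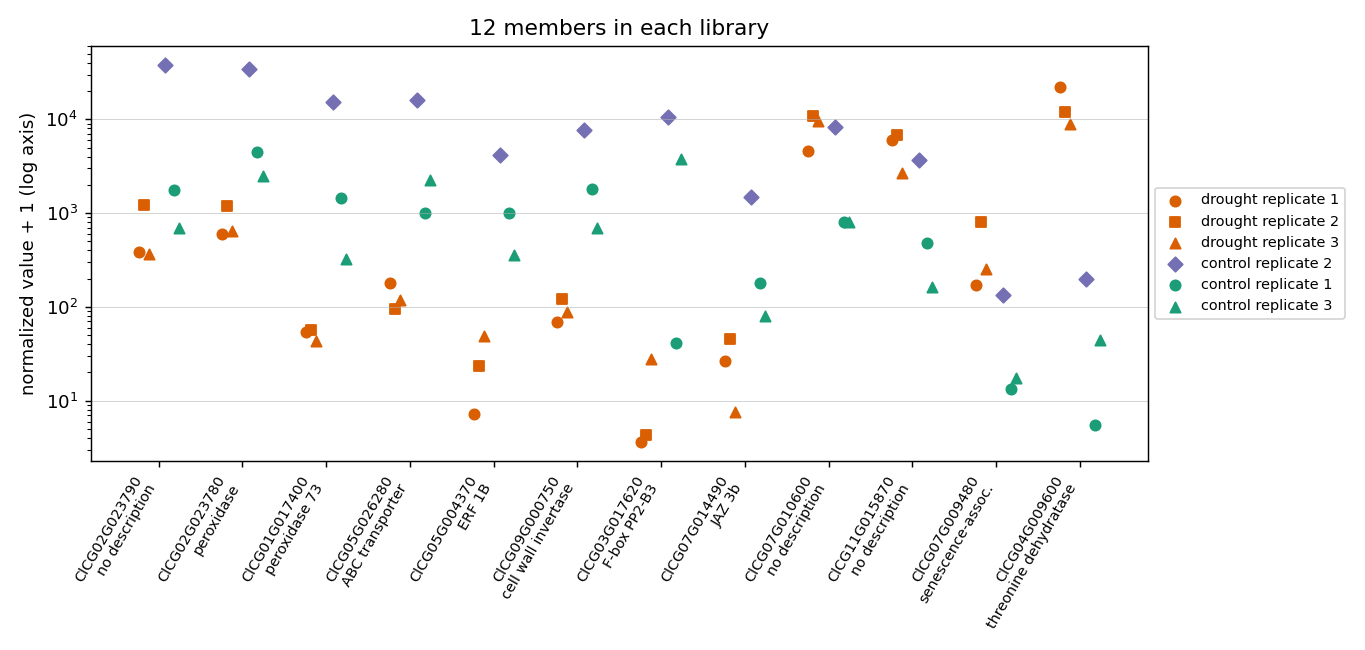
Normalized value + 1 (log axis) of 12 members in each library. Orange symbols are the drought libraries, the purple diamond is control replicate 2 and green symbols are control replicates 1 and 3. In the 8 genes on the left control replicate 2 is above every other library, and in the 4 on the right the drought libraries stand at or above its level except for drought replicate 1 of ClCG07G010600 and drought replicate 3 of ClCG11G015870.

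Hormone-response genes among the members were single genes of their lists. The jasmonate ZIM-domain protein 3b gene (ClCG07G014490), of a family of repressors of jasmonate response, had 25.4, 44.4 and 6.65 normalized counts in the drought libraries, against 1489.6 in control replicate 2 and 177 and 79.5 in control replicates 1 and 3. Ethylene-responsive transcription factor 1B (ClCG05G004370), whose Arabidopsis relatives act where ethylene and jasmonate signals meet, had 6.13, 22.6 and 48.4, against 4155 in control replicate 2 and 1012 and 356 in control replicates 1 and 3. No drought library reached any control library in either gene. The ethylene factor fell in drought by 6.15 on the log2 scale (SE 1.16, edgeR adjusted p = 0.0201), and the jasmonate repressor had a log2 fold change of -4.48 that was not called (edgeR adjusted p = 0.0568, or 0.00719 with the replicate block). They were the single members of 22 ethylene and 13 jasmonate genes that passed the filters.

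Calcium and kinase genes gave a few more members. Calmodulin-binding protein 60-C (ClCG00G001090), of a family with members that act in salicylic acid synthesis in Arabidopsis, had 14.9, 27.7 and 3.8 normalized counts in the drought libraries, against 1409 in control replicate 2 and 176 and 87.8 in control replicates 1 and 3. The leucine-rich repeat kinase gene ClCG07G013510 had 37.6, 111 and 27.5, against 2428 in control replicate 2 and 564 and 299 in control replicates 1 and 3. Both had separate groups and both were called lower (log2 fold change -5.13, edgeR adjusted p = 0.0397, and -4.20, edgeR adjusted p = 0.032). The mitogen-activated protein kinase ClCG03G002080, of the kinase cascades that relay stress signals, had 44.6, 116 and 101, against 2061 in control replicate 2 and 319.8 and 202 in control replicates 1 and 3, and was not called (edgeR adjusted p = 0.0596, or 0.0346 with the replicate block). The kinase list held 5 members of 196 genes that passed (2.55%) and the calcium list 2 of 41 (4.88%). A name match with the kinase list also placed fructokinase (ClCG06G000890), an enzyme of fructose use and no signalling kinase, among those 5, and it had 80.5, 149 and 76.9 in the drought libraries, against 1503 in control replicate 2 and 340.0 and 267 in control replicates 1 and 3 (log2 fold change -2.76, edgeR adjusted p = 0.0471, or 0.0699 with scaling by library totals).

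The description lists of transcription factors and of defence proteins held few members. The gene described as a Myb domain protein, ClCG04G011090, of a family of DNA-binding factors, had 5.25, 31.8 and 14.2 normalized counts in the drought libraries, against 1268 in control replicate 2 and 138 and 36.8 in control replicates 1 and 3, and was the single member of 136 genes of its list (0.735%). The chitinase family gene ClCG03G006570, of enzymes that cut chitin, had 14.9, 81.3 and 5.7, against 2150 in control replicate 2 and 477 and 86.6 in control replicates 1 and 3, and was the single member of 36 (2.78%). Their edgeR adjusted p values were 0.0626 and 0.0647, or 0.0265 and 0.00135 with the replicate block.

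Other members described with a link to defence fell outside these lists and were chosen after their values were seen. NIM1-interacting 3 (ClCG02G014690), whose Arabidopsis relatives bind the salicylic acid regulator NPR1, had 22.8, 12.6 and 23.7 normalized counts in the drought libraries, against 1127 in control replicate 2 and 140.3 and 24.9 in control replicates 1 and 3. Sigma factor binding protein 1 (ClCG05G026910), a plastid and nuclear regulator in Arabidopsis, had 39.4, 144 and 50.3, against 992 in control replicate 2 and 255 and 74.8 in control replicates 1 and 3. Control replicate 3 lay close to or within the drought range in both, and neither was called (edgeR adjusted p = 0.0647, and 0.126, or 0.0418 with the replicate block).

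The lists of sugar, cell wall and cuticle genes held 1 member each, of 20 (5.00%), 86 (1.16%) and 29 (3.45%) genes that passed the filters, against 2.24% of all described genes. Cell wall invertase I (ClCG09G000750), which splits sucrose outside the cell, had 67.4, 119.8 and 87.4 normalized counts in the drought libraries, against 7675 in control replicate 2 and 1798 and 687 in control replicates 1 and 3. Pectinesterase (ClCG05G002440), which removes methyl groups from pectin, had 20.1, 51.9 and 51.3, against 2948 in control replicate 2 and 713 and 437 in control replicates 1 and 3. The lipid-transfer family gene ClCG10G002150, of small secreted proteins that bind lipids, had 2.63, 11.7 and 38, against 1466 in control replicate 2 and 277 and 147 in control replicates 1 and 3. All of them were called lower, with log2 fold changes of -5.19 (SE 0.93, edgeR adjusted p = 0.0174), -5.03 (SE 0.85, edgeR adjusted p = 0.0146) and -5.16 (SE 1.20, edgeR adjusted p = 0.0349).

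The list of ubiquitin ligases held 2 members of 68 genes that passed (2.94%). The list of phosphate transport held 0 members of 4 genes that passed. The list of nitrate, ammonium, asparagine and amino acid transport held 0 of 27. The transporter members printed here were in no list. The ABC transporter gene ClCG05G026280, of membrane pumps that move compounds at the cost of ATP, had 181, 93.8 and 117 normalized counts in the drought libraries, against 15914 in control replicate 2 and 1013 and 2284 in control replicates 1 and 3, and was chosen after its values were seen (log2 fold change -5.59, SE 1.12, edgeR adjusted p = 0.0232). Another ABC transporter member, ClCG07G013290, had 113, 85.5 and 64.6, against 1243 in control replicate 2 and 340 and 67.7 in control replicates 1 and 3, and ureide permease 1 (ClCG09G008780), a carrier of allantoin and related compounds, had 17.5, 126 and 65.5, against 953 in control replicate 2 and 226 and 42.7 in control replicates 1 and 3. The drought libraries overlapped control replicate 3 in both of these, which were also chosen after their values were seen, and neither was called (edgeR adjusted p = 0.100 and 0.172). F-box protein PP2-B3 (ClCG03G017620), of the subunits by which ubiquitin ligases select their targets, had 2.63, 3.35 and 26.6, against 10689 in control replicate 2 and 40.4 and 3802 in control replicates 1 and 3. Its control replicates 1 and 3 were far apart, though both above every drought library, and its fold change of -8.79 had an SE of 2.03 (edgeR adjusted p = 0.0343). The RING finger gene ClCG10G002470, of another kind of ubiquitin ligase, had 21.9, 24.3 and 9.5, against 611 in control replicate 2 and 155 and 60.5 in control replicates 1 and 3 (log2 fold change -3.86, edgeR adjusted p = 0.0359). Of the 3 cytochrome P450 members, from 47 genes of their list that passed (6.38%), ClCG11G015530 was called lower, with 43.8, 39.4 and 22.8 in the drought libraries, against 2201 in control replicate 2 and 395 and 104 in control replicates 1 and 3 (log2 fold change -4.65, edgeR adjusted p = 0.0368).

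Many of the lists drawn up for a leaf under drought held no member. There were 0 members among 47 heat shock and chaperone genes, 25 abscisic acid genes, 16 genes of late embryogenesis proteins, dehydrins and raffinose sugars, 16 citrulline, arginine and proline genes, 18 photosynthesis and chloroplast genes, 30 ribosome genes and 49 pentatricopeptide repeat genes that passed the filters. As 2.24% of the described genes that passed were members, lists of this size would hold about 1 member or none at that share. The senescence list held 1 of 11. The median ratio that chose the members was -0.17 on the log2 scale over the heat shock genes and 0.06 over all genes that passed.

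A small number of members reached or passed the level of control replicate 2 in drought. The mean count filter used all 6 libraries, so genes low in every control could enter only through their drought counts. Nothing is therefore read from the number of such members or from their high place. Threonine dehydratase (ClCG04G009600), the enzyme that opens isoleucine synthesis, with a jasmonate-induced leaf form in tomato, had 22145, 11888 and 8947 normalized counts in the drought libraries, against 197 in control replicate 2 and 4.49 and 43.9 in control replicates 1 and 3. All drought libraries were above all control libraries, and the gene was called higher (log2 fold change 7.46, SE 1.30, edgeR adjusted p = 0.0157). It met the mean count filter only through the drought libraries, with read counts of 25297, 14188 and 9422. Its read counts were 194 in control replicate 2 and 4 and 37 in control replicates 1 and 3. The call and the separation of the groups therefore do not stand apart from the choice of the gene. In FPKM the gene had 617, 343 and 241 in the drought libraries, against 5.86 in control replicate 2 and 0.103 and 0.916 in control replicates 1 and 3. Its neighbour on chromosome 4, ClCG04G009590, without a description, had 845, 148 and 222 normalized counts, against 389 in control replicate 2 and 2.24 and 72.4 in control replicates 1 and 3, and was not called (edgeR adjusted p = 0.502). Both had their lowest control in replicate 1 and their highest drought value in replicate 1.

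The senescence-associated family gene ClCG07G009480 had 172, 796 and 254 normalized counts in the drought libraries, against 134 in control replicate 2 and 12.3 and 16.6 in control replicates 1 and 3. It was above control replicate 2 in every drought library, by a small margin in drought replicate 1, and its log2 fold change of 2.91 was not called (edgeR adjusted p = 0.103, or 0.00502 with the replicate block). Its read counts were 132 in control replicate 2 and 11 and 14 in control replicates 1 and 3, so it needed its drought counts to meet the mean count filter. Its high drought values and the p with the block therefore do not stand apart from the choice of the gene. Threonine dehydratase and this gene were the 2 members with all drought libraries above control replicate 2.

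Members without a description made up the rest of the high group. ClCG07G010600 had 4569.5, 10952 and 9499.7 normalized counts in the drought libraries, against 8244 in control replicate 2 and 798 and 802 in control replicates 1 and 3. ClCG11G015870 had 6029.7, 6802 and 2665, against 3653 in control replicate 2 and 483 and 161 in control replicates 1 and 3. ClCG05G024110 had 1984, 3203 and 3108, against 2298 in control replicate 2 and 258 and 140.1 in control replicates 1 and 3. In all of them control replicate 2 lay inside the drought range and the other controls lay far below it. The fits to all 6 libraries gave log2 fold changes of 1.36, 1.87 and 1.64 that were not called (edgeR adjusted p = 0.363, 0.265 and 0.287, and 0.0366 for ClCG11G015870 with the replicate block). Without control replicate 2 they were 3.41, 4.02 and 3.82, against controls whose low values chose the genes. The unplaced gene ClCG00G003280 had 1613, 2460 and 321 in the drought libraries, against 1432 in control replicate 2 and 270.5 and 89 in control replicates 1 and 3 (edgeR adjusted p = 0.432, or 0.0294 with the replicate block). ClCG01G018410 had 132, 243 and 200.4, against 188 in control replicate 2 and 25.8 and 24.9 in control replicates 1 and 3. This gene also needed its drought counts to meet the mean count filter, so nothing is read from its drought level.

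Between the control states, but nearer control replicate 2, was ClCG10G010380 with 143, 427 and 195 normalized counts in the drought libraries, against 435 in control replicate 2 and 23.6 and 8.31 in control replicates 1 and 3. ClCG03G008040 had 204, 163 and 60.8, against 169.9 in control replicate 2 and 12.3 and 3.56 in control replicates 1 and 3. ClCG10G013420 had 614, 1447 and 861, against 5429 in control replicate 2 and 157 and 149.6 in control replicates 1 and 3. The drought libraries were above control replicates 1 and 3 in each of these genes and none was called (edgeR adjusted p = 0.727, 0.529 and 0.653). ClCG10G010380 and ClCG03G008040 needed their drought counts to meet the mean count filter, so nothing is read from this order in them. For ClCG10G013420 the log2 fold change was -0.96 over all libraries, 1.03 with the replicate block (edgeR adjusted p = 0.492) and 2.69 without control replicate 2, again against controls that chose it.

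The 15 members with the highest ratio had no description, and their levels outside control replicate 2 varied widely. ClCG02G019160 had 1867 normalized counts in control replicate 2 and 0 in the drought libraries and in control replicates 1 and 3. ClCG10G014450 had 6.13, 6.7 and 0 in the drought libraries, against 2326 in control replicate 2 and 7.86 and 0 in control replicates 1 and 3. ClCG03G008370 had 0, 1.68 and 0, against 1178 in control replicate 2 and 35.9 and 0 in control replicates 1 and 3. Together with ClCG10G010460 (4.38, 5.87 and 0.95 in the drought libraries, against 4254 in control replicate 2 and 78.6 and 11.9 in control replicates 1 and 3), these were the members that the low-count filter of the edgeR fit left out, so 146 of the 150 were tested.

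Among the tested members, ClCG02G016680 had 2.63, 83.8 and 0 in the drought libraries, against 22069 in control replicate 2 and 282 and 103 in control replicates 1 and 3. Its neighbour ClCG02G016690, called lower (log2 fold change -7.07, edgeR adjusted p = 0.0278), had 7.88, 57 and 6.65, against 8508 in control replicate 2 and 659.9 and 668 in control replicates 1 and 3. ClCG10G015160 had 11.4, 60.3 and 10.4, against 6967 in control replicate 2 and 99.9 and 99.7 in control replicates 1 and 3. Drought replicate 2 was the highest drought library in each of these genes, both controls 1 and 3 lay above it, and ClCG02G016680 and ClCG10G015160 were not called (edgeR adjusted p = 0.0904 and 0.0734, or 0.00124 and 0.0187 with the replicate block).

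The ratio that chose the members used no drought value, so the order and spread of the drought libraries are set beside those of all genes that passed the filters. The mean count filter could be met through control replicate 2 alone, or through the drought libraries by members low in all controls. The median drought mean was 99.9 normalized counts in the members and 531 in all genes that passed. Drought replicate 2 was the highest drought library in 108 members (72.0%), against 37.9% of all genes that passed the filters, while drought replicate 1 was highest in 21 (14%, against 33.8%) and drought replicate 3 in 20 (13.3%, against 28.3%). At least 2-fold above the other drought libraries in drought replicate 2 were 50 members (33.3%), against 1.93% of all genes that passed. The median SD of log2(value + 10) over the drought libraries was 0.61 in the members and 0.19 in all genes that passed, and 34 members (22.7%) had an SD of 1 or more, against 2.0%. Among genes with a drought mean of at least 100 normalized counts, a limit set after seeing the data, drought replicate 2 was highest in 56 of 75 members (74.7%), against 38.1% of 11545 genes, at least 2-fold above the others in 24 (32%), against 1.53%, and the median SD was 0.55, against 0.19. Members are not independent of each other, many may vary together in a plant, and no test was made of these shares.

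**Figure D4:**
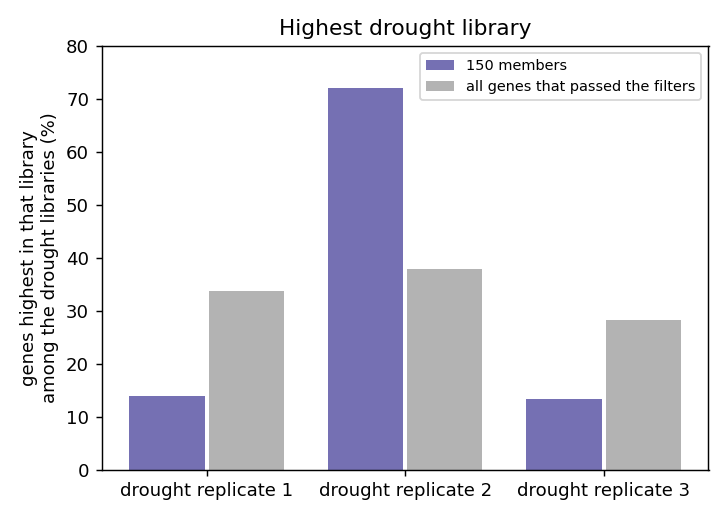
Bars give the share of genes (%) whose normalized value was highest in each drought library, for the 150 members (purple) and for all 12255 genes that passed the filters (grey). Drought replicate 2 was highest in 72.0% of the members and in 37.9% of all genes, and the other drought libraries in fewer members than genes.

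Examples of this order were ClCG00G003540, without a description, with 17.5, 631 and 21.8 normalized counts in the drought libraries, against 812 in control replicate 2 and 20.2 and 15.4 in control replicates 1 and 3. ClCG08G006530 had 178, 1372 and 605, against 1143 in control replicate 2 and 187 and 80.7 in control replicates 1 and 3. In these genes drought replicate 2 stood near control replicate 2, while drought replicate 1 stood near control replicate 1. The ratio of drought replicate 2 over the other drought libraries and the ratio that chose the members had a Pearson correlation of 0.21 across the members and 0.49 across the 12255 genes. Across those genes it was -0.39 for drought replicate 1 and -0.15 for drought replicate 3. Genes share a library and its depth, so this is a description and carries no p. By the same formula, 39 of the 150 genes highest in drought replicate 2 were members (26% of each list), against 4 of those highest in drought replicate 1 and 4 in drought replicate 3. Control replicate 1 was above control replicate 3 in 125 members (83.3%), against 49.5% of the genes that passed. The ratio that chose the members used both of these controls, so nothing is read from this contrast.

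The drought comparison over all 6 libraries used the controls of the selection, and its calls are given beside the background. Of the 146 tested members, 1 was called higher (0.685%) and 25 lower (17.1%) by edgeR at an adjusted p under 0.05, against 5.31% higher and 8.08% lower of all 16318 tested genes, and nothing is read from the difference. The median log2 fold change of drought over control was -2.51 in the members and -0.03 in all tested genes, with a median SE of 1.01 and 0.35. In each of the 25 genes every drought library was below every control library. This order held in 51 of the 150 members (34.0%) and in 19.5% of the genes that passed the filters, and the high value of control replicate 2 for which members were chosen makes it easier to meet. With the replicate number as a block, 4 members were called higher and 54 lower, against 5.08% and 9.22% of all tested genes. Without control replicate 2, 26 of 147 tested members were called higher (17.7%) and 34 lower (23.1%), against 11.3% and 14.8% of 16707 tested genes. Control replicates 1 and 3 were the denominator of the ratio that chose the members, so nothing is read from that contrast either. No member was called without drought replicate 1 (1.13% of all tested genes higher and 1.40% lower) or without drought replicate 3 (0.891% and 0.974%), where at an unadjusted p under 0.05 edgeR gave 2 higher and 54 lower, and 2 higher and 56 lower. Without drought replicate 2, 0 members were higher and 1 lower (1.20% and 1.82% of all tested genes), or 1 and 70 at an unadjusted p under 0.05. The share of all genes at the unadjusted threshold was not taken in these fits, so nothing is read from the unadjusted counts. Leaving out control replicate 1 gave 1 higher and 8 lower (1.41% and 2.43%), and leaving out control replicate 3 gave 1 and 58 (5.16% and 8.50%).

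Some features of the gene models were not used by the rule. The members' median transcript length was 1272 bases, against 1640 bases for all genes that passed, and 26 (17.3%) had a genomic span equal to their transcript length, the mark of a single exon, against 9.11%. Their mean count over the libraries had a median of 387, against 584. On the chromosomes, 0.290% to 1.88% of the genes that passed were members, and among 70 genes on scaffolds not placed on a chromosome 8 were (11.4%). No test was made of these features.

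Some members lay next to each other. Within 3 listed genes of another member were 23 of them, in 9 runs, and 13 were directly adjacent in the table's order. The longest run, on chromosome 10, held ClCG10G010380, ClCG10G010390, ClCG10G010450 and ClCG10G010460 (23096824 to 23197422), which did not share a drought level. ClCG10G010390 had 87.5, 202 and 98.8 normalized counts in the drought libraries, against 922 in control replicate 2 and 189.7 and 122 in control replicates 1 and 3. ClCG10G010450 had 179, 307 and 411, against 5640 in control replicate 2 and 360.2 and 159 in control replicates 1 and 3. In ClCG10G010390 and ClCG10G010450 the drought libraries overlapped control replicates 1 and 3, in ClCG10G010380 they were above them and in ClCG10G010460 below them.

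By the place of the drought mean, 3 of the 9 runs were uniform and 6 were mixed. The peroxidase run of chromosome 2 and the pair ClCG07G013510 and ClCG07G013530 of chromosome 7 lay below the mean of control replicates 1 and 3, and threonine dehydratase and its neighbour lay above control replicate 2. In a mixed run on chromosome 2, ClCG02G016660 (31183761 to 31187624) had 1094, 2012 and 1077 in the drought libraries, against 5517 in control replicate 2 and 984 and 439 in control replicates 1 and 3. Its run mates were lower in drought, ClCG02G016680 with 2.63, 83.8 and 0 and ClCG02G016690 with 7.88, 57 and 6.65. On chromosome 11, ClCG11G015850 (29141075 to 29150683), described as an aspartyl protease, which cuts proteins, had 339.7, 437 and 351, against 5273 in control replicate 2 and 1230 and 653 in control replicates 1 and 3 (edgeR adjusted p = 0.0579, or 0.0453 with the replicate block), while ClCG11G015870 in the same run was high in drought. The run on chromosome 8 paired the Pathogen-related protein gene ClCG08G006500, with 56.9, 118 and 112 in the drought libraries against 2207 in control replicate 2 and 428 and 193 in control replicates 1 and 3 (edgeR adjusted p = 0.0549, or 0.0439 with the replicate block), with ClCG08G006530. The library kit did not keep strand, so reads of overlapping genes could not be told apart.

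The genes outside the set with the most similar pattern were found by the Pearson correlation of log2(value + 10) with the members' median profile over the 6 libraries. They were ClCG06G015720, ClCG09G002390 and ClCG03G014070 (each 0.997), and ClCG05G005650 and ClCG01G013260 (both 0.995), none of them with a description. ClCG01G013260 had 228, 360.3 and 224 normalized counts in the drought libraries, against 1354 in control replicate 2 and 457 and 258 in control replicates 1 and 3, which is the members' order at a smaller amplitude. A correlation of 0.9 or more was found for 722 genes outside the set and for 84 members, whose values had a median of 0.92 and a lowest of -0.40. The likeness uses the values that chose the members and is a description.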

How the data were processed

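The members, their rule and the description lists were chosen with earlier results of these data known. The authors deposited 1 table with read counts, normalized counts (a signal, the counts divided by library size factors of 0.842 to 1.19), FPKM and gene length for each gene, plus a test of drought against control (fold changes on a log2 scale, with raw and adjusted p-values), which was left unused. Columns of the drought libraries carry another prefix than the sample titles, and were matched by replicate number. A further FPKM table was not used, and 0 columns of other samples were left out. Reads were aligned to the Charleston Gray genome; the study's methods name TopHat and HTSeq, and the submitters' processing notes name HISAT2 2.1.0, fastp, featureCounts and DESeq2.

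Normalized values chose the members and gave the places of the drought mean, with a pseudocount of 10. Counts were tested for drought against control with edgeR 4.0.16 (quasi-likelihood, TMM scaling, filterByExpr, Benjamini-Hochberg adjustment over all 16318 genes, threshold 0.05, R 4.3.3). The script was tested on simulated data. Control replicate 2 was not tested against the other controls. Replicates were separate plants, and neither the sample labels nor the study's methods state a pairing across the groups. Samples with the same number deviated together from their group means (correlations 0.179, 0.448 and 0.153), so a fit with the replicate number as a block is given where it changes a call, although control replicate 3 correlated more with drought replicate 1 (0.338). Alternatives were other scalings, DESeq2 1.42.0, no filter, an unadjusted p, leaving out each library, and other rules of membership. Named genes were the 15 members with the highest ratio, those at the limit, up to 4 for each description list, those with the highest and lowest drought levels, chromosomal neighbours, and 5 genes outside most like the set, and a selection of these is printed.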

Additional observations from a re-analysis of the deposited data

How the results depend on the processing

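In the drought comparison, 25 members were lower and 1 was higher by edgeR. DESeq2 called 64 lower and 2 higher (21 members without an adjusted p), against 15.2% and 10% of all genes. An unadjusted p under 0.05 gave 73 and 2, against 17.7% and 13.8%. The replicate block, which treats same-numbered plants as pairs though no label states a pairing, gave 54 and 4. Over the fits that left out 1 library the calls ran from 0 to 58 lower and from 0 to 26 higher, and the cause was not tested. Scaling by library totals, which moved the median of all genes to 0.13 (-0.03 with TMM), gave 23 lower and 1 higher. Of all genes, 5.26% were lower and 5.73% higher with this scaling. DESeq2 size factors gave 25 and 1 (8.31% and 5.07% of all genes), and no filter 25 and 1 (6.13% and 3.92%). Of the places of the drought mean, the number above control replicate 2 was 4 with FPKM, against 8, and other alternatives kept each place within 1.5 times its count. Other membership rules kept 128 to 150 of the members. The lists of the 100 and of the 200 highest were cut from the same ratio, so their full overlap with the members was fixed in advance. The count of members highest in drought replicate 2 was 108 with TMM scaling (72.0%, against 37.6% of all genes that passed). With FPKM it was 113 (75.3%, against 47.8%), a smaller contrast. With library totals it was 113, where no share of all genes was taken. These alternatives were chosen after seeing the data.

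Without control replicate 2, the log2 fold change of drought over control changed sign in 35 of 146 members. Of the named genes, 12 changed sign under some alternative, 10 of them when control replicate 2 was left out. Over the fits without 1 library it ran from -3.30 to 1.73 for ClCG04G007180, from -1.52 to 2.69 for ClCG10G013420, from -6.64 to 0.28 for ClCG08G012990, from -4.02 to 1.57 for ClCG00G003960, from -3.81 to 3.66 for ClCG00G003540, from -4.04 to 0.25 for ClCG00G004280, from -1.22 to 0.99 for ClCG02G016660, from -2.82 to 0.19 for ClCG04G007550, from -0.24 to 2.44 for ClCG08G006530, from -3.33 to 0.22 for ClCG10G010450, from -2.04 to 0.17 for ClCG11G004320 and from -0.34 to 2.13 for ClCG05G022990. With the replicate block, ClCG04G007180 was at 0.10, ClCG10G013420 at 1.03 and ClCG02G016660 at 0.02, and no other named member changed direction. Of 802 values of named genes under the alternatives, 649 kept direction and side of the threshold, 66 lost the call, 70 gained it and 17 changed sign. With 3 plants per group, a change seen in 1 plant cannot be told from a state of that plant, and depth limited the members with few counts outside control replicate 2.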
